A study of Ciona savignyi with 56 samples.

Results

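B5.1 and B5.2 are the sister blastomeres that arise when the posterior-vegetal cell of the 8-cell ascidian embryo divides. They were compared in Ciona savignyi at the 16-cell stage. The cells were taken by the class that the authors' cell table gives them, which yielded 4 B5.1 and 4 B5.2 cells, 2 of each from each of 2 embryos. These 8 cells are part of 32 cells at the stage and of 773 cells in the series. All embryos used here were untreated wild-collected material, fertilised and dechorionated in the laboratory, and dissociated with trypsin 1 embryo at a time. Each blastomere was picked by hand and its polyadenylated RNA was reverse transcribed and amplified much as in Smart-seq2, with a barcode in the primer and 15 PCR cycles at this stage. The other classes of the same embryos were A5.1/2 (8 cells, the anterior vegetal quartet) and the animal cells (16 cells). The daughters of both sisters, B6.1 and B6.2 on the B5.1 side and B6.3 and B6.4 on the B5.2 side, were measured in 2 other embryos at the 32-cell stage.

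Ascidian embryos cleave by a fixed pattern, so each blastomere has a name and a known set of descendants. The posterior vegetal cytoplasm of the egg carries localised maternal RNAs, known as postplasmic or PEM RNAs, that are held at a cortical structure called the centrosome-attracting body. This structure draws one pole of the spindle and makes the posterior divisions unequal, so that the smaller, posterior daughter inherits it each time. B5.2 is that posterior daughter and leads to the germline through B6.3, while B5.1 leads to endoderm, mesenchyme and muscle. In ascidians the germline side is also known for holding back its own transcription while it carries this cytoplasm.

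The deposited columns of this stage hold read counts, and levels are given as CPM, the read count scaled to the same total in every cell or class sum. They are therefore shares of a cell's RNA and say nothing of its total. The B5.1 cells held from 146128 to 608779 reads and the B5.2 cells from 121233 to 360510. Genes carry identifiers without names in the files, so neither the class labels nor any group of known genes could be checked against named markers. For the same reason no gene's function is given.

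The sisters of embryo 1 were sequenced in different libraries. Both B5.1 cells of embryo 1 were in the first 16-cell library, and both B5.2 cells of embryo 1 were in the second. Embryo 2 lay wholly in the second library. The libraries differed in how often a molecule was read, with 2.91 to 3.13 reads per UMI (a tag that marks copies of 1 molecule) over the 8 cells of the first and 4.24 to 4.69 over the 24 cells of the second. They shared 0 cell barcodes. In embryo 1 the sisters' difference and the libraries' difference can be told apart only through the other classes, which had 6 cells in each library. Results that rest on the first library are therefore given with and without it below.

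Between the sisters, 20 genes were higher in B5.1 and 17 were higher in B5.2 (edgeR quasi-likelihood test on sums per embryo and class, embryo as a block, Benjamini-Hochberg adjusted p under 0.05). These are 0.300% and 0.255% of the 6675 genes tested. A further measure of the background is that 20.9% of all tested genes had both B5.1 sums above both B5.2 sums, and 15.9% had the reverse. The median log2 difference over all tested genes was 0.05. The fitted log2 differences of the 17 genes higher in B5.2 ran from -6.51 to -1.23, and those of the genes higher in B5.1 from 1.24 to 3.70, apart from 1 gene with no read in B5.2. The count moved with the setting, from 3 genes without 1 of the B5.2 cells to 132 without embryo 2.

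**Figure D1:**
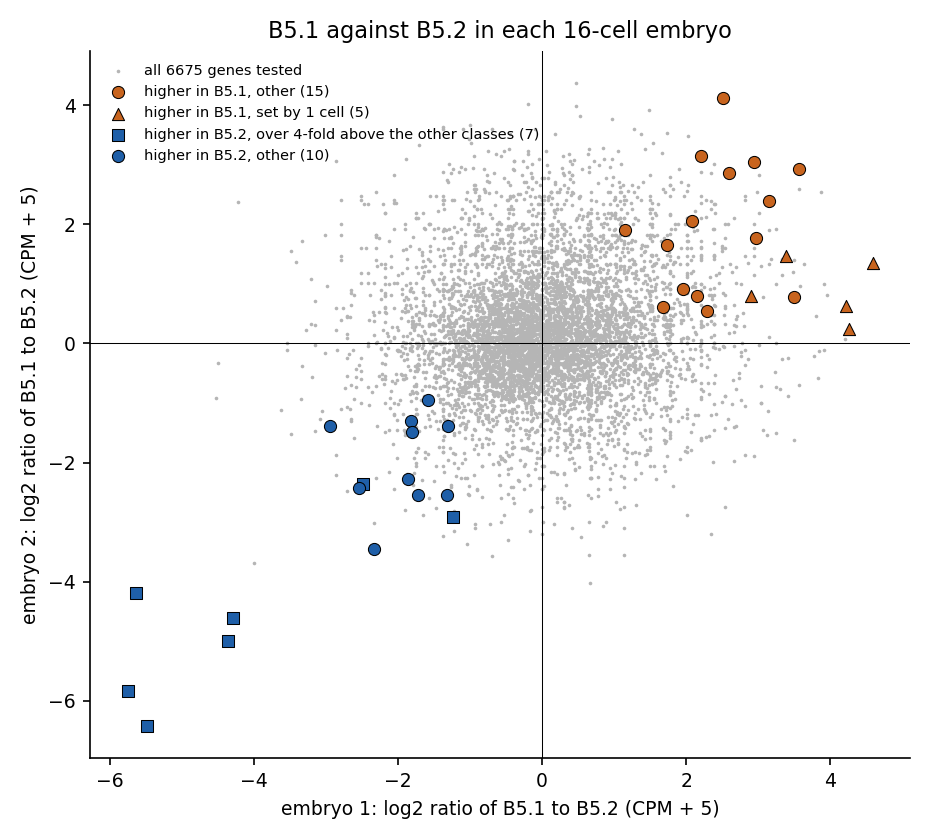
Log2 ratio of B5.1 to B5.2 in embryo 1 (x axis) and embryo 2 (y axis), from class sums in CPM with 5 added, for all 6675 tested genes in grey and the 37 called genes in colour. The squares at the lower left are 7 genes more than 4-fold above the other classes in B5.2. They lie between -5.75 and -1.23 in embryo 1 and between -6.42 and -2.37 in embryo 2. The triangles are 5 genes whose B5.1 level was set by 1 cell. They are high in embryo 1 and near 1 or less in embryo 2 apart from a pair at 1.35 and 1.47.

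The clearest genes of the B5.2 side were nearly absent from B5.1. ENSCSAVG00000001907 was read in B5.2 at 724 and 763 CPM in the cells of embryo 1 and at 579 and 734 CPM in those of embryo 2. In B5.1 it was read at 0 and 16.2 CPM in embryo 1 and at 8.21 and 0 CPM in embryo 2. Every B5.2 cell was thus far above every B5.1 cell, and the 4 B5.2 cells lay close to each other. The fitted log2 difference was -6.49 with a standard error of 0.52 (edgeR, adjusted p = 3.97e-11). The cells of the other classes had medians of 1.34 CPM in A5.1/2 and 1.54 CPM in the animal class, with the highest single cell at 31.5 CPM.

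ENSCSAVG00000007674 had the same form at a lower level. Its B5.2 cells held 141, 255, 123 and 206 CPM, and only 1 of the 4 B5.1 cells had any read of it, at 10.8 CPM from 2 reads. The fitted log2 difference was -6.51 with a standard error of 0.92 (edgeR, adjusted p = 3.93e-05). Without the second B5.2 cell of embryo 1 it missed the threshold (adjusted p = 0.0664). Its median was 11.7 CPM in A5.1/2 cells and 0 CPM in animal cells.

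The 17 genes of the B5.2 side fell into a restricted and a graded group, split by whether B5.2 was more than 4-fold above the mean of A5.1/2 and the animal class in both embryos. The restricted group held 7 genes, and the 2 genes above are among them. Their median level was 174 and 319 CPM in the B5.2 cells of embryo 1 and 246 and 330 CPM in those of embryo 2. In B5.1 the median was 20.5 and 16.2 CPM in embryo 1 and 8.21 and 0 CPM in embryo 2. All 7 had every B5.2 cell above every B5.1 cell, which held for 119 of the 6675 tested genes. The 7 were chosen from these same cells by B5.2 over B5.1, which favours this pattern, so the counts are no test. In B5.1 these 7 genes stood at about the level of the anterior and animal cells, with a median log2 ratio to them of -0.35 in embryo 1 and -0.60 in embryo 2, against -0.33 and -0.30 over all tested genes.

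The graded group held the other 10 genes, with B5.2 mostly above the anterior and animal classes and B5.1 mostly below them. The median log2 ratio to those classes was 0.65 in embryo 1 and 0.85 in embryo 2 for B5.2. For B5.1 it was -1.08 and -0.84. Over all tested genes it was -0.315 and -0.398 for B5.2, and -0.33 and -0.30 for B5.1. Against that background the shift was larger in B5.2 than in B5.1. In 2 of the 10 genes B5.1 was above those classes in both embryos. In 7 of the 10 genes B5.1 had the lowest of the 4 class levels in both embryos, which was so for 1014 of all 6675 genes. The choice of genes by B5.2 over B5.1 in these same sums favours this, so it is no test. Just under the 4-fold line, a log2 of 2, were 2 genes that passed it in embryo 2, at 2.87 and 2.28, and missed it in embryo 1, where the nearer one stood at 1.95.

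**Figure D2:**
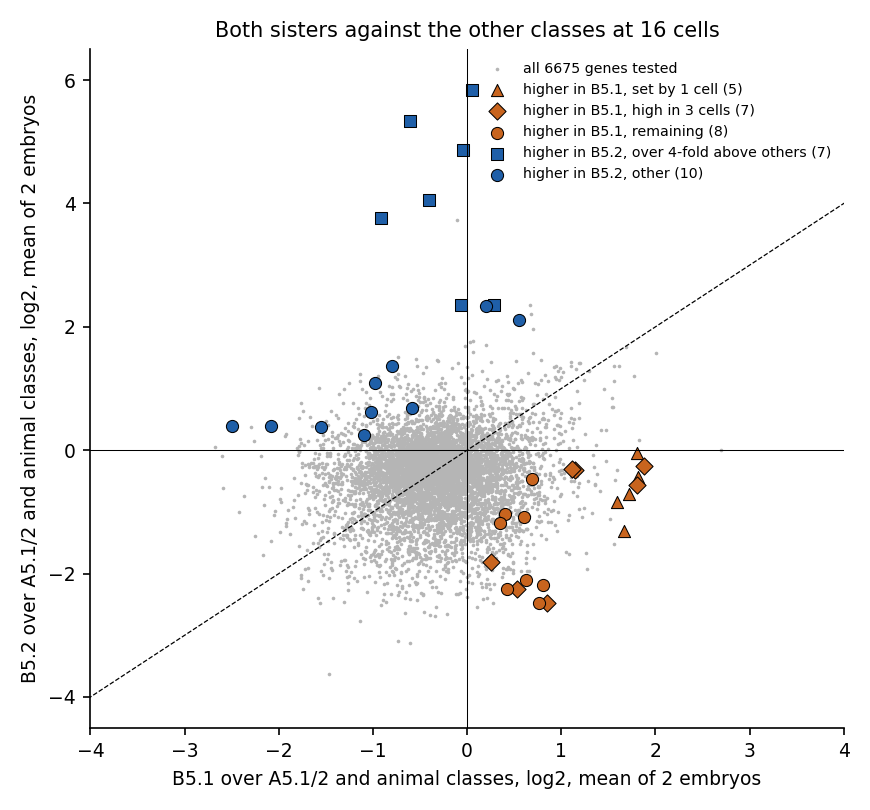
Level of each tested gene in B5.1 (x axis) and B5.2 (y axis) as a log2 ratio to the mean of A5.1/2 and the animal class, averaged over both embryos, with the called genes coloured by group. The 7 blue squares stand high on the y axis and near 0 on the x axis, and most orange circles and diamonds lie below 0 on the y axis.

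The 20 genes of the B5.1 side were of 3 kinds. In 5 genes the B5.1 level was set by 1 cell, with the highest B5.1 cell more than 4-fold above the next, as in 460 of the 6675 tested genes and in 2 of the 17 genes of the B5.2 side. In 7 genes 3 of the 4 B5.1 cells were at least 2-fold above every B5.2 cell and the remaining B5.1 cell lay within the B5.2 range, a pattern that 43 of all 6675 tested genes showed. The other 8 genes all had B5.2 as the lowest of the 4 classes in both embryos, which was so for 1235 of the 6675 genes. It was also so for 4 of the 7 genes and 1 of the 5 genes above. The 20 genes were chosen by B5.1 over B5.2 in these same sums, which favours such patterns. The counts over all genes are therefore no test of them.

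Those 8 genes were low in B5.2 more than they were high in B5.1. Relative to the anterior and animal classes, B5.2 stood at a median log2 of -1.57 in embryo 1 and -1.93 in embryo 2, and B5.1 at 0.65 and 0.37. Over all tested genes these medians were -0.315 and -0.398 for B5.2, and -0.33 and -0.30 for B5.1. Against that background the gap between the 2 shifts is smaller. Their median level in the 4 B5.1 cells ran from 130 to 175 CPM, and in the 4 B5.2 cells from 16.5 to 50.3 CPM. In 7 of the 8 every B5.1 cell was above every B5.2 cell, against 167 of all 6675 genes, a pattern that the choice of these genes also favours. With library as a further block 2 of the 8 were called, and in the second library alone 0 were, with all 8 in the same direction in both.

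ENSCSAVG00000004217 belonged to these 8 genes. It was read at 61.6 and 48.7 CPM in the B5.1 cells of embryo 1 and at 32.9 and 33.1 CPM in those of embryo 2, from 6 to 20 reads a cell, and in none of the 4 B5.2 cells. Taken over the floor of 3 reads per class sum, B5.1 was at least 5.68-fold higher. The fitted log2 difference of 8.70 (standard error 2.09, edgeR adjusted p = 0.0379) depends on the prior count of the fit and is no bound. It missed the threshold with library as a further block (adjusted p = 0.125), in the second library alone (0.512) and in a fit of B5.1 and B5.2 only (0.251). The medians of the anterior and animal cells over both embryos were 21.1 and 14.4 CPM, but in embryo 2 the animal cells had a median of 34.4 CPM, above both B5.1 cells. It was present in all 8 zygotes at 6.69 to 25.8 CPM, and at the 32-cell stage it was again read in B6.3, at 39.4 and 3.87 CPM, and in B6.4, at 37.0 and 18.5 CPM.

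Among the 7 genes high in 3 B5.1 cells, 4 shared the same low cell, the first B5.1 cell of embryo 2, which was also the deepest of the 8 cells. Together these 4 genes took 5.58% and 5.38% of the reads in the B5.1 cells of embryo 1, and 1.32% and 6.55% in those of embryo 2. The B5.2 cells ranged from 0.778% to 2.16%, the A5.1/2 cells from 0.648% to 2.48%, and the animal cells from 0.871% to 4.91%. The low B5.1 cell therefore lay within the range of every other class, while the other 3 B5.1 cells lay above every other cell of the stage.

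ENSCSAVG00000012451 is 1 of these 4 genes and also rose in B5.1 over the anterior and animal classes, by the second largest amount among called genes whose class sums did not overlap. It was read at 1143, 816, 104 and 871 CPM in the B5.1 cells and at 55.5 to 189 CPM in the B5.2 cells. The log2 difference was 2.26 (standard error 0.42, edgeR adjusted p = 0.00247) between the sisters and 2.36 (standard error 0.31, adjusted p = 3.80e-06) against the other classes. Without the first library these differences were 1.15 (adjusted p = 0.629) and 1.22 (adjusted p = 0.662), and neither passed the test. With library as a further block they were 1.83 (adjusted p = 0.0351) and 2.09 (adjusted p = 6.04e-06), and DESeq2 gave an adjusted p of 0.106 against the other classes. The comparisons of the sisters with each other and with the other classes share the B5 cells, so these are not independent of each other.

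The 5 genes set by 1 cell all had their highest level in the first B5.1 cell of embryo 1. That cell held 712 to 3846 CPM of them, which was 10.8 to 21.8 times the next B5.1 cell. The other 3 B5.1 cells held 11.02 to 296 CPM and the B5.2 cells 2.77 to 302 CPM. These ranges are over all 5 genes and do not compare the classes gene by gene. In 1 of the 5 genes, ENSCSAVG00000008095, every B5.1 cell was above every B5.2 cell. ENSCSAVG00000008095, the one of these genes with the largest difference, was read at 712 CPM in that cell and at 64.9, 42.7 and 66.1 CPM in the other B5.1 cells. In the B5.2 cells it was read at 26.8, 2.77, 20.5 and 8.25 CPM, from 1 to 4 reads each. Its fitted log2 difference was 3.70 (standard error 0.76, edgeR adjusted p = 0.00986), and it missed the threshold without that cell (log2 2.18, adjusted p = 0.326).

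The same 5 genes also differed between the libraries in cells of other classes. Among the anterior and animal cells of embryo 1, those in the first library were above those in the second by a median log2 of 2.62 over the 5 genes, with a range of 2.33 to 3.02, against -0.08 over all tested genes. The levels in those cells were 24.9 to 723 CPM in the first library, with a median of 142, and 0 to 113 CPM in the second, with a median of 20.2. The first library held 3 A5.1/2 and 3 animal cells of embryo 1 and the second held 1 and 5, so the class mix also differed. Of the 5 genes, 1 was read in all 8 zygotes, at 10.07 to 35.3 CPM, ENSCSAVG00000008095 in 6 of the 8, at up to 25.8 CPM, and the other 3 in 1 or 2 of the 8. The median over the 5 genes was at most 4.52 CPM in any zygote, and stood at 41.9 CPM in 1 of the 8-cell embryos and at 6.45 and 7.43 CPM in the others. At 32 cells the median was 91.4 CPM in 1 embryo and 21.5 CPM in the other.

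**Figure D3:**
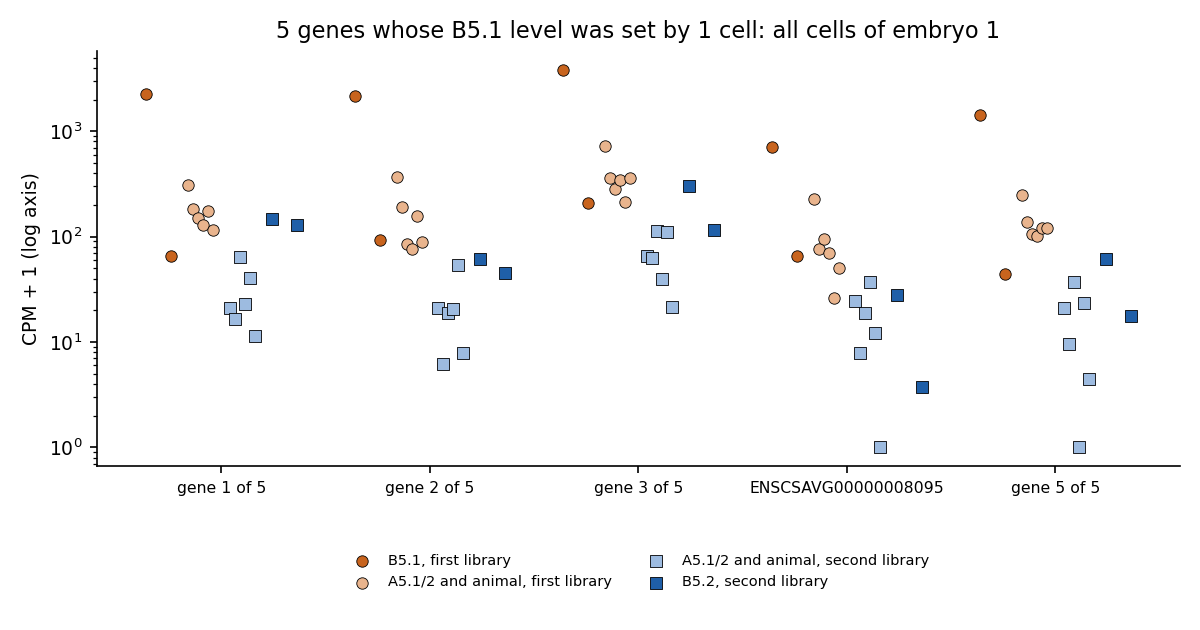
Level of the 5 genes set by 1 cell in all 16 cells of embryo 1, in CPM with 1 added on a log axis, by class and library. For each gene the first B5.1 cell is the highest point, and the pale orange points (other classes, first library; 24.9 to 723 CPM) lie mostly above the pale blue ones (other classes, second library; 0 to 113 CPM).

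The sisters were then compared with the libraries taken into account. With library added to the embryo as a block, which uses the other classes of embryo 1, 22 genes were called, 7 higher in B5.1 and 15 higher in B5.2, and all of them were among the 37. None of the 5 genes set by 1 cell was among the 7, and their median log2 difference went from 2.74 to 0.94. In the second library alone, 12 genes were called. There B5.1 is 1 class sum, from embryo 2, so the spread comes from the other classes and a lost call is no measure of the library. Of the 20 genes of the B5.1 side 1 was called there and 17 had the same direction, and the 5 genes set by 1 cell had a median log2 difference of -0.21. Of the 17 genes of the B5.2 side 8 were called there and all 17 had the same direction, and the 7 restricted genes had a median of -5.04 against -5.38 with all cells. Leaving out 1 cell could also change the count: without the second B5.2 cell of embryo 1, the deepest of that class, 3 genes were called, all higher in B5.2.

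**Figure D4:**
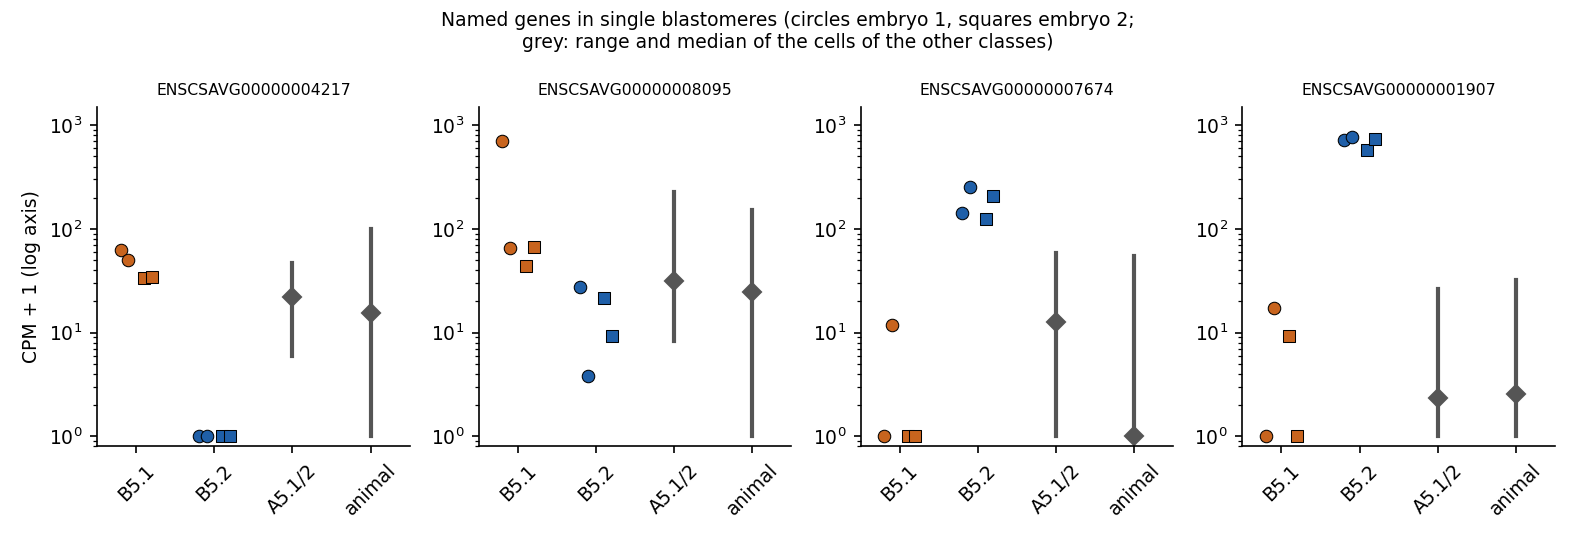
Level of the 4 named genes in each B5.1 cell (orange) and B5.2 cell (blue), in CPM with 1 added on a log axis, with the range and median of the A5.1/2 and animal cells in grey. The 2 genes at the right are above 100 CPM in all 4 B5.2 cells, and the gene at the left is at 0 in all 4 B5.2 cells.

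The restricted B5.2 genes were followed through the lineage in other embryos. All 7 were read in all 8 zygotes, with a median of 49.0 CPM. At the 4-cell stage 5 of the 7 were higher in the posterior B cells than in the anterior A cells in all 3 embryos, against 663 of the 6675 genes. At the 8-cell stage all 7 were higher in B4.1, the mother of the sisters, than in the class labelled animal in all 3 embryos, against 190 of the 6675. That was the only other class of the stage, and the labels name no separate anterior vegetal class there. Their median log2 ratio to cells outside the B line was 2.93, 3.37 and 2.95 in B4.1 and 4.26 and 3.97 in B5.2.

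At the 32-cell stage the same genes stood highest in B6.3, the posterior daughter of B5.2. Their median log2 ratio to the anterior and animal classes was 5.98 and 5.71 in B6.3 and 1.15 and 1.07 in B6.4. All 7 were higher in B6.3 than in B6.4 in both embryos, which held for 1002 of the 6675 genes. ENSCSAVG00000001907 was at 226, 223 and 299 CPM in B4.1 and at 638 and 751 CPM in the B5.2 sums. In B6.3 it was at 2187 and 1852 CPM, and in B6.4 at 35.4 and 4.27 CPM. ENSCSAVG00000007674 was at 722 and 764 CPM in B6.3 and at 8.04 and 31.3 CPM in B6.4.

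**Figure D5:**
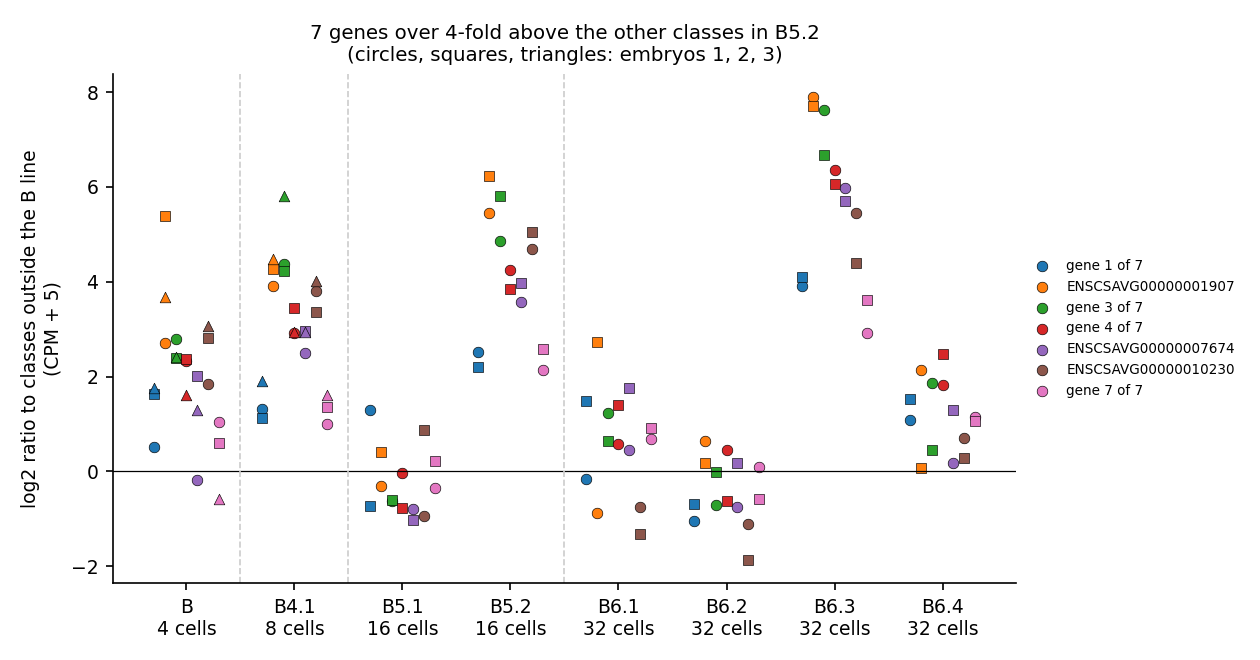
Log2 ratio of the 7 restricted genes to the classes outside the B line, in each B-line class from 4 to 32 cells, with 1 colour a gene and 1 symbol an embryo. B4.1, B5.2 and B6.3 lie above 0 for every gene and embryo, B5.1 scatters around 0, and B6.4 lies between 0.07 and 2.47.

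The 32-cell daughters were also tested across all genes. Of 6971 genes tested, 13 (0.186%) were higher in the mean of B6.1 and B6.2 (edgeR, embryo as a block, adjusted p under 0.05). In the mean of B6.3 and B6.4, 36 (0.516%) were higher. A higher mean need not hold for both daughters. The class sums of the 2 sides did not overlap in 8 of the 13 and 9 of the 36, a pattern that the choice of genes favours. Of the 17 genes higher in B5.2 at 16 cells, 10 were also called on the same side at 32 cells. That is 58.8% of the 16-cell list and 27.8% of the 32-cell list. These 10 included all 7 restricted genes. Of the 20 genes higher in B5.1 and the 13 higher in its daughters, 0 were shared. Of all 6515 genes tested at both stages, 9 were called on the B5.1 side at 32 cells and 36 on the B5.2 side. The 0 of 20 is therefore near the share of all genes. No gene was called on one side at 16 cells and on the other at 32 cells.

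The genes of the B5.1 daughters were mostly low in B6.3 and B6.4 alone. In 8 of the 13 every B6.3 and B6.4 sum was below every other class sum of the stage, against 92 of the 6971 genes tested. The choice of the 13 from these same sums favours this pattern. No zygote had a count of 4 of the 13, against 49 of the 6971, and none of the 8 B5 cells had a read of 3 of them, against 61 of the 6971. ENSCSAVG00000000293 had no read in any B5.1 or B5.2 cell and none in B6.3 or B6.4. It was at 24.2 and 24.7 CPM in B6.1, at 28.1 and 49.5 CPM in B6.2, and at 49.5 and 87.0 CPM in the animal class of the 32-cell stage (edgeR adjusted p = 1.53e-04 for the daughters). ENSCSAVG00000011320 likewise had no read in the 8 B5 cells, and was at 161 and 40.7 CPM in B6.1, at 30.9 and 42.1 CPM in B6.2, and at 0 to 1.93 CPM in B6.3 and B6.4 (edgeR adjusted p = 2.93e-05). Both genes were also present in the anterior classes of the 32-cell stage, so they were low on the B5.2 side rather than particular to the B5.1 side.

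The genes of the B5.2 daughters split differently. Of the 36, 18 were outside the run of neighbouring identifiers described below, and all 18 were higher in B6.3 than in B6.4 in both embryos, against 1056 of all 6971 genes. ENSCSAVG00000010230 was at 134, 289, 236 and 330 CPM in the B5.2 cells and at 0, 0, 1.64 and 38.6 CPM in the B5.1 cells. In B6.3 it reached 1346 and 953 CPM and in B6.4 it was at 45.04 and 49.8 CPM, and its log2 difference between the daughters was -4.63 (standard error 0.33, edgeR adjusted p = 1.19e-13). ENSCSAVG00000000498 was read at 46.9 to 86.0 CPM in the B5.2 cells and in 1 of the 4 B5.1 cells, at 1.64 CPM from 1 read. It rose against the anterior and animal classes in B5.2 (log2 6.65, standard error 1.18, edgeR adjusted p = 5.10e-04) and was on the B5.2 side among the daughters (log2 -5.20, adjusted p = 1.84e-06). Between the sisters it missed the threshold, with a log2 difference of -6.20 and an adjusted p of 0.0860.

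Against the anterior and animal classes, B5.1 had 33 genes higher (0.494% of 6675) and 1 lower (0.0150%), and B5.2 had 33 higher (0.494%) and 4 lower (0.0599%). Many of these were shared features of the posterior vegetal quadrant, led by a run of 42 neighbouring identifiers around ENSCSAVG00000012509, the most abundant gene of the matrix. The run took 25.7% and 24.4% of reads in B5.1 and 27.3% and 25.4% in B5.2 in embryos 1 and 2, against 15.3% and 8.85% in A5.1/2 and 9.43% and 9.32% in the animal class. Of its 28 tested genes, 19 were above the other classes in B5.1 and 18 in B5.2. Between the sisters 0 of the 28 were called by edgeR, DESeq2 or limma. With 37 of all 6675 genes called by edgeR, 0 of 28 is near the share of all genes. An unadjusted p under 0.05 was reached by 1 of the 28 in edgeR, 1 in DESeq2 and 0 in limma. Over all 6675 genes it was reached by 793, 764 and 1044. Their median log2 difference between the sisters was -0.07. The first gene itself stood at 138656 to 233671 CPM in the B5.1 cells and at 154566 to 181043 CPM in the B5.2 cells. Single cells varied more than the sisters did, from 21.4% to 34.5% of reads within the B5.1 cells of embryo 2. At 32 cells, 18 of the 29 tested genes of the run were called on the B5.2 side and 0 on the B5.1 side. That test averages B6.1 with B6.2, and these differed. ENSCSAVG00000012509 was at 28440 and 24850 CPM in B6.1 and at 177200 and 164800 CPM in B6.2, against 189300 and 176600 CPM in B6.3 and 121100 and 122500 CPM in B6.4. For this gene B6.2 therefore lay with the B5.2 daughters, and B6.1 alone was low.

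Of the 33 genes higher in B5.1 than in the anterior and animal classes, 19 were in the run, as were 18 of the 33 for B5.2. The rest for B5.1 lay outside it, among them ENSCSAVG00000007523. ENSCSAVG00000007523 had reads in 3 of the 4 B5.1 cells, at 37.8, 26.3 and 66.1 CPM from 7 to 16 reads, and in none of the other 29 cells of the stage. It had no count in any of the 8 zygotes and none in the 4-cell classes. At 8 cells it was at 0.742 CPM in the class labelled animal of 1 embryo and at 0 in every B4.1 sum. The difference from the anterior and animal classes passed the test (edgeR adjusted p = 0.0337). It missed the threshold with library as a further block (adjusted p = 0.0906), with the run left out (0.0979), with limma-trend (0.255) and in the second library alone (1.0). The difference from B5.2 did not pass the test (edgeR adjusted p = 0.324), although B5.1 was at least 3.68-fold higher over the floor of 3 reads. At 32 cells it was read in B6.2, at 29.96 and 22.3 CPM, and in B6.4, at 8.04 and 42.7 CPM. In embryo 2 it was also read in B6.3, at 19.3 CPM, and in B6.1, at 4.36 CPM, and so on both sides of the sister division.

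ENSCSAVG00000011282 was the 1 gene called lower in B5.1 than in the anterior and animal classes. The 4 B5.1 cells held 5.41 to 13.7 CPM, while the A5.1/2 cells had a median of 63.9 CPM and the animal cells of 89.7 CPM. The log2 difference was -2.81 (standard error 0.62, edgeR adjusted p = 0.0143), and -2.94 in the second library alone, where it missed the threshold (adjusted p = 0.250). The B5.2 cells held 0, 61.0, 46.1 and 90.7 CPM, and the difference between the sisters missed the threshold (adjusted p = 0.0991).

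For B5.2, the lower genes included transcripts that were present all around it. ENSCSAVG00000008890 had no read in any B5.2 cell, while the A5.1/2 cells ranged from 20.5 to 84.7 CPM and the animal cells from 25.1 to 207 CPM (edgeR adjusted p = 0.00197). The B5.1 cells lay between, at 6.84, 27.0, 21.4 and 0 CPM, and the sisters' difference missed the threshold (adjusted p = 0.0868). ENSCSAVG00000003621 likewise had no read in B5.2 and was at 13.7, 27.0, 26.3 and 0 CPM in the B5.1 cells (edgeR adjusted p = 0.0300 for B5.2 against the anterior and animal classes, and 0.0648 in the second library alone). At 32 cells both genes were read in B6.3 and in B6.4 in both embryos.

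The number of genes read per cell overlapped between the sisters. Thinned to 10000 reads a cell, B5.1 cells held 3203, 3086, 3351 and 2740 genes and B5.2 cells 2951, 3133, 3076 and 2909. The means per embryo were 3144 and 3046 in B5.1 and 3042 and 2992 in B5.2, so both B5.1 means lay above both B5.2 means. An exact two-sided permutation test of such a value over the 2 against 2 class sums could not go below p = 0.333. In embryo 2 the correlation of log levels over 3732 genes was 0.68 between the B5.1 cells and 0.58 between the B5.2 cells. Between a B5.1 and a B5.2 cell it was 0.53 to 0.71. Pairs with the first B5.1 cell, the deepest at 608779 reads, had 0.66 to 0.71, and pairs without it 0.53 to 0.58. The values therefore do not compare the likeness of classes apart from depth, and the part of depth was not tested. These correlations are across genes of 1 library, and genes are not independent replicates.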

How the data were processed

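Per the labels' protocols, single blastomeres were lysed with barcoded primers, amplified by Smart-seq2, pooled by stage and made into tagmentation libraries. CASAVA 1.8 is named in the submitters' processing notes, beside DESeq2 and Seurat. Neither the aligner nor the genome build nor the basis of the class labels is given in the sources. The authors deposited 1 matrix of whole-number counts (12172 genes, 773 cells) and a cell table. Matrix totals equalled the table's read numbers in all 32 cells of the 16-cell stage and in the 8- and 32-cell stages, so these are read counts, whereas those of the 2-, 4-, 64- and 110-cell stages are UMI counts.

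Counts were summed per embryo and class. edgeR 4.0.16 (TMM, filterByExpr, quasi-likelihood, embryo as a block, since the classes come from the same embryos) was fitted to all classes of a stage, with Benjamini-Hochberg adjustment at 0.05 over all tested genes. R 4.3.3 and Python 3.11.15 were used, and alternatives used DESeq2 1.42.0 and limma 3.58.1. The test was tried on simulated data. Log2 ratios of class levels have 5 CPM added, and fitted log2 differences do not. Genes were named by a rule: adjusted p under 0.05, outside the run of 42 neighbouring identifiers, class sums that do not overlap, and the largest fitted difference, with at most 2 a direction. The members, lists and groups of genes were chosen with earlier results of these data known, the library fits and the single-cell omissions after seeing the data, and 0 identifiers could be matched to marker lists of postplasmic, zygotic and animal genes. GEO does not say that the embryos came from different parents, so p-values speak only for these 2 embryos. With embryo as a block, a shift common to all classes of an embryo is removed. The p-values then rest on how far class differences varied between the embryos, over all classes of a stage. edgeR also shares its estimate of this spread among genes, so a gene's p-value does not rest on its own variation alone. In the embryo whose sisters lay in different libraries, that spread also holds the library difference. No doublet caller was run, since cells were picked by hand, and 0 of the 32 cells were marked low quality. Intervals and floors cover counting error only.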

Additional observations from a re-analysis of the deposited data

Results flagged for a closer look

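ENSCSAVG00000008095 differed in the direction of its mean between the stages. The B5.1 side was above the B5.2 side by a mean log2 of 2.97 at 16 cells, with both embryos in that direction. At 32 cells, with the CPM of each pair of daughters averaged, the mean was -1.01 and both embryos were in the opposite direction. In embryo 1 of that stage B6.3 was at 68.95 and B6.4 at 14.5 CPM, against 42.9 in B6.1 and 27.15 in B6.2. B6.4 thus lay below both B5.1 daughters there. In embryo 2 B6.3 was at 81.2 and B6.4 at 24.2 CPM, against 4.36 in B6.1 and 19.0 in B6.2. The difference between stages was not tested, and at 16 cells the value rests mainly on 1 B5.1 cell of the first library.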

How the results depend on the processing

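The 37 calls between the sisters (20 and 17) became 58 with every gene that had a count, 13 with limma-trend, 6 with a log2 threshold of 1, 70 in a joint fit with the 8- and 32-cell stages and 19 in a fit of B5.1 and B5.2 alone, where fewer class sums set the spread. They became 22 with embryo and library as a block and 12 in the second library alone. Without the replicate block (the embryo) 32 were called, and RLE scaling, DESeq2, scaling to UMI numbers and leaving out the run gave 39 to 43. Leaving out an embryo gave 29 calls without embryo 1, of which 1 of 20 and 9 of 17 were among the 37, and 132 without embryo 2, of which 13 and 9 were. There the spread was taken from the other stages and a lone sum was assumed to vary like them. Leaving out 1 B5 cell gave 3 to 34 calls, with 3 without the second B5.2 cell of embryo 1, 18 without the second B5.1 cell of embryo 1, 24 without the first B5.2 cell of embryo 1, and 16 without the second cell of either class of embryo 2. The fits with library and without single cells were chosen after seeing the data.

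The 34 calls of B5.1 against the anterior and animal classes became 14 without the run of neighbouring identifiers, 6 with the threshold, 57 with reads scaled to UMI numbers, 19 in the second library alone, and 18 to 59 without an embryo. The 37 of B5.2 became 18 without the run, 20 with the threshold, and 40 to 66 without an embryo. The 49 calls between the daughters became 85 with DESeq2, 32 without the run, 24 with the threshold, and 82 to 291 without an embryo. The cause was not tested beyond the fewer genes or samples that some settings hold.

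The run took 20.6% of reads in B5.1 and 21.2% in B5.2 within 15 identifiers of its centre, and 26.2% and 26.8% within 60. Genes per cell were 2075 and 2077 after thinning to 5000 reads, and 4128 and 3919 at 20000, in place of 3095 and 3017. Of 277 recomputed differences of named genes, 214 kept their call and direction, 63 kept the direction and missed the threshold, and 0 reversed. A gene with under 3 reads in a class sum could not be told from an absent one at this depth.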
